A study of Mus musculus with 21 samples.

Results

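The question was whether seizures changed the difference between 2 kinds of cells transplanted into mouse brain: cells derived from monocytes, called microglia-like cells (MLC), and microglia themselves (MG). For each gene the difference between MLC and MG after saline was subtracted from the difference between MLC and MG after seizure, a contrast called the interaction here. A positive interaction means that the ratio of MLC to MG was higher after seizure than after saline, and a shift alike in both kinds of cells cancels. Of the 57180 genes in the table, 18867 passed a filter on low counts and were tested. The contrast used 16 of the 21 libraries: 6 of MLC after seizure, 4 of MG after seizure, 3 of MLC after saline and 3 of MG after saline. Each library was labelled a biological replicate and was made from cells sorted from brain. Both kinds of transplanted cells carried the genotype Osb-GFP in both treatments. Seizures were brought on with kainic acid, an agonist of glutamate receptors, and cells were taken 5 days later; the comparison was with saline. The labels do not say what drives the GFP. The other 5 libraries held microglia of mice without a transplant (NoTx), heterozygous for CX3CR1-CreER, in which the promoter of a gene of microglia and other macrophages drives Cre, with floxed CSF1R alleles, 3 after seizure and 2 after saline; they entered the fit to help estimate the spread and are quoted where they bear on a gene. All seizure libraries were batch 1 and all saline libraries batch 2, so seizure and batch cannot be told apart within either kind of cell. A batch effect of unequal size in MLC and MG would not cancel in the interaction.

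Microglia, the macrophages that reside in the brain, arise from the yolk sac, whereas monocytes come from bone marrow. Monocytes that enter an emptied brain take on much of the microglial program but are known to keep a set of their own genes, among them Ms4a7 and Apoe, and to express little Sall1, a transcription factor of resident microglia. After kainic acid, neuronal firing releases ATP and glutamate, to which microglia respond through purinergic receptors such as P2ry12.

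The 10 seizure libraries held 6571292 to 47413134 counts and 13074 to 16416 detected genes, against 36765178 to 50316320 counts and 17893 to 21988 genes in the 6 saline libraries. MG seizure replicates 3 and 4 and MLC seizure replicate 5 had the fewest genes with counts when all libraries were thinned to the same total. MLC seizure replicates 3 and 6, coded 11b, share their code with replicates 2 and 4, and the labels do not say whether these come from separate mice. Levels are given as counts-per-million values (CPM) after TMM scaling. Markers of all macrophages were abundant in every group: 12 genes summed to 6190 to 12100 CPM in MLC seizure, 11300 to 15000 in MG seizure, 11200 to 20900 in MLC saline and 15900 to 24500 in MG saline libraries. Xist, the RNA that silences an X chromosome, lay at 1.08 to 7.48 CPM in MLC seizure, 187 to 421 in MG seizure, 0.452 to 2.05 in MLC saline and 306 to 408 in MG saline libraries. The level of Xist therefore follows the kind of cell, and in MLC against MG the origin of the cells and their sex cannot be told apart. In bulk RNA, fewer cells of a type and less RNA per cell cannot be told apart.

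No gene passed the test of the interaction. In edgeR's quasi-likelihood test, 0 of 18867 genes (0%) had an adjusted p under 0.05, and the lowest adjusted p was 0.28. Without adjustment, 1036 genes (5.49%) had a p under 0.05, 743 of them with a positive interaction (3.94%) and 293 with a negative one (1.55%). DESeq2 called 143 genes, 118 positive and 25 negative, of which 8 reached an average log2 CPM of 4. Limma-voom with quality weights called 8 genes and limma on log2(CPM + 1) called 2, Erbb3 and a predicted gene, both named here after their values were seen; none of these reached an average log2 CPM of 4. The differences between MLC and MG themselves were many: 1109 genes (5.88%) passed after seizure, 474 higher (2.51%) and 635 lower (3.37%) in MLC, and 299 (1.58%) passed after saline, 147 higher (0.779%) and 152 lower (0.806%). That more genes passed after seizure is no test of a change, since 10 libraries stood on that side and 6 on the other.

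**Figure D1:**
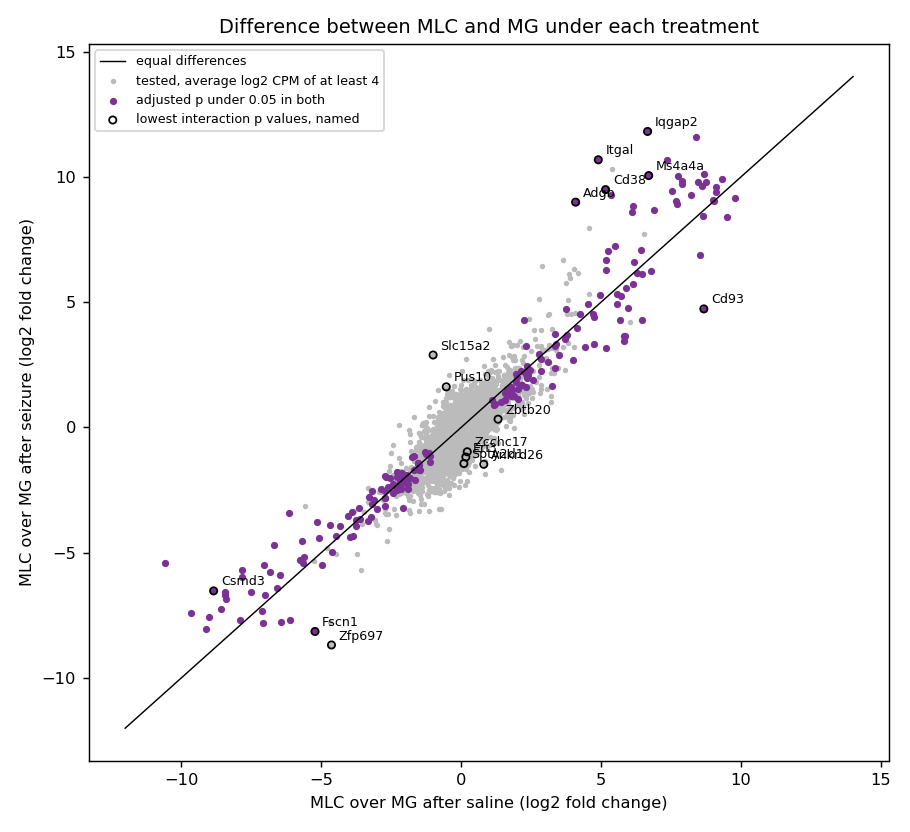
The MLC over MG log2 fold change after seizure (vertical) is plotted against that after saline (horizontal) for the 6856 genes whose average log2 CPM was 4 or more; purple points are the 207 of these that passed in both treatments, the line marks equal differences, and rings mark the 16 named genes with the lowest interaction p values. Points lie along the line, with Cd38, Itgal, Adgb, Iqgap2 and Ms4a4a above it and Cd93 below it; the fitted folds of Itgal and Iqgap2 rest on 2 and 1 counts in MG seizure.

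How closely the interaction could be measured depended on the level of a gene. The 95% interval of the interaction reached a median of 0.98 on the log2 scale to each side of the estimate for the 574 genes whose average log2 CPM was 8 or more. It was 1.12 for levels of 6 to 8, 1.75 for 4 to 6, 3.37 for 2 to 4 and 6.05 below 0. For levels of 2 to 4 that is 10.4-fold in each direction, and smaller interactions were mostly not detectable there. Unadjusted p values under 0.05 were also most frequent at low levels, in 11.6% of genes below a log2 CPM of 0 and in 0.348% of genes at 8 and over. Over the 6856 genes at 4 and over, 6201 (90.4%) had an interaction of less than 1 in size, with a median of -0.18, and 287 had an interval wholly within -1 to 1.

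The genes that tell MLC from MG kept their direction. Of the 299 genes that differed after saline, 288 also passed after seizure and in the same direction, 143 higher and 145 lower in MLC. Their interaction had a median of 0.19, and 169 of them (58.7%) lay within 1 of 0 on the log2 scale, beside 57.6% of all genes tested. The share was 90.4% over all genes with an average log2 CPM of 4 or more. Of the genes that passed in both treatments, 207 were at that level. For 17 genes the whole 95% interval lay within -1 to 1: Atp2b1, St3gal6, Hsd17b4, Ms4a6b, Nrp1, Pag1, Tmem176b, Cd9, Ctsc, Aars, P2ry12, Gng10, Gcnt1, C3ar1, Siglech, Rhob and Rras2. The difference between MLC and MG was larger after seizure for 71 of the 143 genes higher in MLC and for 45 of the 145 genes lower in MLC. These 288 genes were chosen by the comparisons that make up the interaction, so these counts only describe them.

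P2ry12, the purinergic receptor that guides microglial processes to released ATP, was the most abundant of the 8 genes whose interaction was bounded most closely among those with a large difference in both treatments. It lay at 1706 to 2584 CPM (median 2173) in MLC seizure libraries and at 11654, 12643, 18368 and 18227 in MG seizure libraries. In MLC saline libraries it lay at 2441, 1634 and 1934 CPM, against 15425, 13285 and 11156 in MG saline libraries. MLC and MG did not overlap in either treatment. The log2 fold change of MLC over MG was -2.82 ± 0.21 (SE) after seizure and -2.73 ± 0.29 after saline, an interaction of -0.09 with a 95% interval of -0.79 to 0.62. Siglech, a microglial lectin, had 205 to 360 CPM (median 260) in MLC seizure and 1010, 890, 1901 and 1271 in MG seizure libraries, against 333, 268 and 353 in MLC saline and 1249, 1609 and 1376 in MG saline libraries. Its interaction was -0.08 (-0.81 to 0.65). Tmem176b, a membrane protein of macrophages and dendritic cells, was the one of the 8 that was higher in MLC. It had 880 to 1545 CPM (median 1329) in MLC seizure and 228, 299, 250 and 280 in MG seizure libraries, against 1636, 1190 and 1395 in MLC saline and 241, 392 and 320 in MG saline libraries, and its interaction was 0.11 (-0.57 to 0.80). The others were lower in MLC in both treatments: Ldhb, a subunit of lactate dehydrogenase (interaction -0.40), Tmem100, a membrane protein (0.38), Sparc, a secreted matrix protein (0.53), Lsp1, an actin-binding protein of leukocytes (0.24), and Atp2c1, a Golgi calcium pump (0.50). Their intervals reached from -1.20 at the lowest (Ldhb) to 1.38 at the highest (Atp2c1), so a change of about 2-fold remained within them. Exons on the opposite strand, of Aste1, cover 18.9% of the exon bases of Atp2c1, and no source here says that reads were counted by strand.

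**Figure D2:**
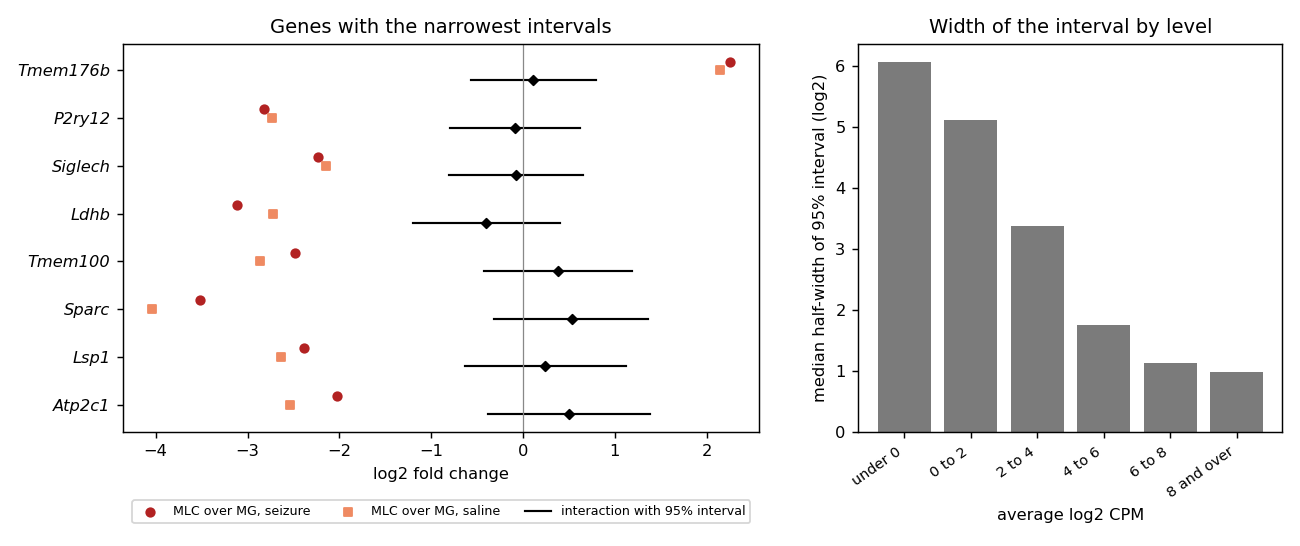
Left, log2 fold changes of MLC over MG after seizure (circles) and after saline (squares) with the interaction and its 95% interval (diamond and line) for the 8 genes with the narrowest intervals; right, bars give the median reach of the 95% interval to each side by average log2 CPM of the gene. Each interval on the left holds 0, and the bars fall with the level of the gene to 0.98 at 8 and over.

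Genes of microglial identity differed between MLC and MG in both treatments, and none passed the interaction. Of the 23 tested genes on a list of homeostatic microglia, 0 passed and 1, Sall1, had an unadjusted p under 0.05; the median interaction was -0.19, beside -0.06 over all genes tested. Of the 25 tested genes known as more highly expressed by microglia than by brain macrophages of bone marrow origin, 23 passed in MLC against MG after seizure and 20 after saline, while 0 passed in the interaction (median -0.08). Of these 25, 4 had a positive and 1 a negative interaction at an unadjusted p under 0.05, beside 3.94% and 1.55% of all genes. Of the 36 genes known for the opposite, 0 passed (median 0.11), and 6 had a positive and 1 a negative interaction at an unadjusted p under 0.05. With the 3 libraries of fewest genes left out, these 3 medians were 0.13, 0.54 and 1.08. Csf1r, the receptor on which microglia depend, had an interaction of -0.40 (-2.31 to 1.51), Cx3cr1, the fractalkine receptor, of -0.19 (-1.71 to 1.33) and Tmem119, a microglial surface protein, of -0.41 (-2.66 to 1.84). These wide intervals go with a wide spread between libraries: Tmem119 had 180 to 1763 CPM (median 442) in MLC seizure and 2345, 5303, 3364 and 518 in MG seizure libraries, against 1848, 1180 and 3824 in MLC saline and 6491, 6465 and 10047 in MG saline libraries.

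Sall1 was the identity gene with the largest shift relative to its error on the homeostatic list. It had 1.67 to 10.02 CPM (median 4.19) in MLC seizure libraries and 198, 252, 329 and 194 in MG seizure libraries. It had 2.54, 0.351 and 1.58 CPM in MLC saline libraries and 334, 263 and 429 in MG saline libraries. MLC thus held far less Sall1 than MG in both treatments, with ratios of MLC to MG of 0.0197 after seizure and 0.00439 after saline. The interaction was 2.16 (95% interval 0.68 to 3.65; edgeR adjusted p = 0.89), which did not pass. Csmd3, a large transmembrane protein with complement-control domains, behaved alike: 0.404 to 2.30 CPM (median 0.991) in MLC seizure and 105, 114, 37.9 and 152 in MG seizure libraries, against 0.196, 0.378 and 0.0942 in MLC saline and 107, 101 and 98.5 in MG saline libraries. Its interaction was 2.33 (0.86 to 3.79; edgeR adjusted p = 0.89). Upk1b, a tetraspanin, had 1.31 (0.16 to 2.47) and Nav3, a neuron navigator protein, 1.39 (0.07 to 2.71), both in the same sense, that is, with less of a deficit in MLC after seizure. Sall3, the close relative of Sall1, had 1.44 with an interval that holds 0 (-0.50 to 3.38). Fscn1, an actin-bundling protein, moved the other way. It had 0 to 0.259 CPM (median 0.143) in MLC seizure and 32.1, 72.4, 41.7 and 28.4 in MG seizure libraries, against 0.695, 2.21 and 1.07 in MLC saline and 41.6, 41.9 and 65.1 in MG saline libraries, an interaction of -2.92 (-4.62 to -1.22; edgeR adjusted p = 0.89). For Csmd3 and Fscn1 the treatments differed in the low level of MLC, with MG libraries that overlapped.

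On the other side, genes that mark bone-marrow-derived macrophages were far lower in MG in both treatments. Ms4a7, a membrane protein of those cells, had 1684 to 4786 CPM (median 3025) in MLC seizure and 1.08, 1.99, 15.3 and 3.02 in MG seizure libraries, against 2859, 1985 and 1645 in MLC saline and 6.38, 4.31 and 1.92 in MG saline libraries. The ratio of MLC to MG was 540 after seizure and 514 after saline, and the interaction was 0.07 (-1.56 to 1.70). Clec12a, an inhibitory lectin of myeloid cells, had 399 to 653 CPM (median 522) in MLC seizure and 0.295, 0.374, 0.902 and 0.413 in MG seizure libraries, against 528, 415 and 535 in MLC saline and 0.932, 0.821 and 0.555 in MG saline libraries, an interaction of 0.62 (-0.87 to 2.11). Apoe, the lipid carrier, varied widely between MLC libraries, at 5939 to 47818 CPM (median 28985) in MLC seizure libraries, 228, 339, 488 and 356 in MG seizure libraries, 62324, 2671 and 8570 in MLC saline libraries and 63.0, 48.4 and 560 in MG saline libraries. Its interaction of -0.55 had an interval of -2.97 to 1.86. Mrc1, the mannose receptor, had -0.50 (-2.28 to 1.29).

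Of the 8 genes of positive interaction with the lowest p values, 5 were genes of MLC whose traces in MG were smaller after seizure. Cd38, an enzyme that consumes NAD and is expressed by macrophages, had the lowest. It had 55.0 to 110 CPM (median 89.1) in MLC seizure libraries and 0.0982, 0, 0.186 and 0.0953 in MG seizure libraries. It had 72.5, 60.1 and 103 CPM in MLC saline libraries and 3.31, 1.69 and 1.61 in MG saline libraries. MLC libraries overlapped between treatments, and MG libraries did not. The ratio of MLC to MG was 722 after seizure and 35.6 after saline, an interaction of 4.34 (2.71 to 5.97; edgeR adjusted p = 0.28). Itgal, the alpha chain of the integrin LFA-1 of leukocytes, had 28.3 to 79.6 CPM (median 37.3) in MLC seizure libraries, 0, 0, 0.0265 and 0.0318 in MG seizure libraries, 34.2, 65.0 and 124 in MLC saline libraries and 2.45, 0.753 and 4.25 in MG saline libraries. The MG seizure libraries held 2 counts of Itgal in all, so no fold is given (edgeR adjusted p = 0.34). Adgb, which encodes a protein of the globin family, had 23.6 to 81.1 CPM (median 41.4) in MLC seizure and 0.0982, 0.125, 0.106 and 0.0318 in MG seizure libraries, against 42.5, 80.4 and 69.0 in MLC saline and 2.31, 2.81 and 6.16 in MG saline libraries, an interaction of 4.90 (2.26 to 7.55; edgeR adjusted p = 0.89). Ms4a4a, one of a cluster of closely related membrane proteins, had 82.7 to 284 CPM (median 146) in MLC seizure and 0.0982, 0, 0.186 and 0.191 in MG seizure libraries, against 142, 123 and 133 in MLC saline and 2.49, 0.798 and 0.4997 in MG saline libraries, an interaction of 3.35 (1.49 to 5.21; edgeR adjusted p = 0.89). Iqgap2, a scaffold protein of the cytoskeleton, held 1 count in all MG seizure libraries, beside 33.1 to 79.4 CPM in MLC seizure libraries, 30.0 to 61.8 CPM in MLC saline libraries and 1.12, 0.0684 and 0.0833 CPM in MG saline libraries. In none of these 5 genes did MLC libraries of the 2 treatments separate.

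NoTx microglia, which lie outside the contrast, also averaged less of Cd38, Ms4a4a and Iqgap2 after seizure, with no test made here. NoTx values of Itgal and Adgb are not given here, so this does not cover all genes of that kind. Cd38 averaged 0.234 ± 0.224 CPM in NoTx seizure libraries and 6.78 ± 0.334 in NoTx saline libraries (SD, n = 3 and 2), Ms4a4a 1.01 ± 0.965 and 9.65 ± 6.16, and Iqgap2 0.189 ± 0.146 and 9.99 ± 6.91. Low levels in general were compared as well. Of the genes at 1 to 5 CPM in the saline mean, the share whose seizure mean was more than 10 times lower was 8.25% in MLC, 13.2% in MG and 16.6% in NoTx. The reverse share, of genes at 1 to 5 CPM in the seizure mean that were more than 10 times lower after saline, was 4.76% in MLC, 4.29% in MG and 6.95% in NoTx. The number of detected genes was also lower in all seizure libraries of MLC and MG, as given above, and batch followed treatment. Depth was lower in most of these libraries but not in all. MG seizure replicate 3 held 47413134 counts, against 38888566 to 45425081 in MG saline libraries, and the other MG seizure libraries lay below that range. In replicate 3 too, Cd38, Itgal, Adgb, Ms4a4a and Iqgap2 lay below all MG saline libraries. When all libraries were thinned to the smallest total, no gene passed either (edgeR, 0 called, 515 with an unadjusted p under 0.05).

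Of the 8 positive genes, 3 were not of that kind. Pus10, a pseudouridine synthase, had 21.2 to 69.2 CPM (median 30.2) in MLC seizure and 13.9, 12.2, 14.4 and 6.70 in MG seizure libraries, against 17.5, 24.5 and 24.4 in MLC saline and 35.01, 27.4 and 33.5 in MG saline libraries. MLC were above MG after seizure and below it after saline, with no overlap in either treatment. The interaction was 2.15 (0.79 to 3.51; edgeR adjusted p = 0.89), and it lay between 1.94 and 2.28 with each of the 16 libraries left out in turn. Slc15a2, a peptide transporter, showed the same crossing with more spread: 30.7 to 54.1 CPM (median 35.7) in MLC seizure and 4.52, 5.61, 0.133 and 11.2 in MG seizure libraries, against 6.23, 5.85 and 5.92 in MLC saline and 20.3, 8.60 and 7.16 in MG saline libraries, an interaction of 3.90 (1.30 to 6.49; edgeR adjusted p = 0.89). Here the MLC libraries of the 2 treatments did not overlap. The last of the 8 was Csmd3, given above. In DESeq2, Cd38, Itgal, Adgb, Iqgap2, Ms4a4a, Pus10 and Slc15a2 passed.

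**Figure D3:**
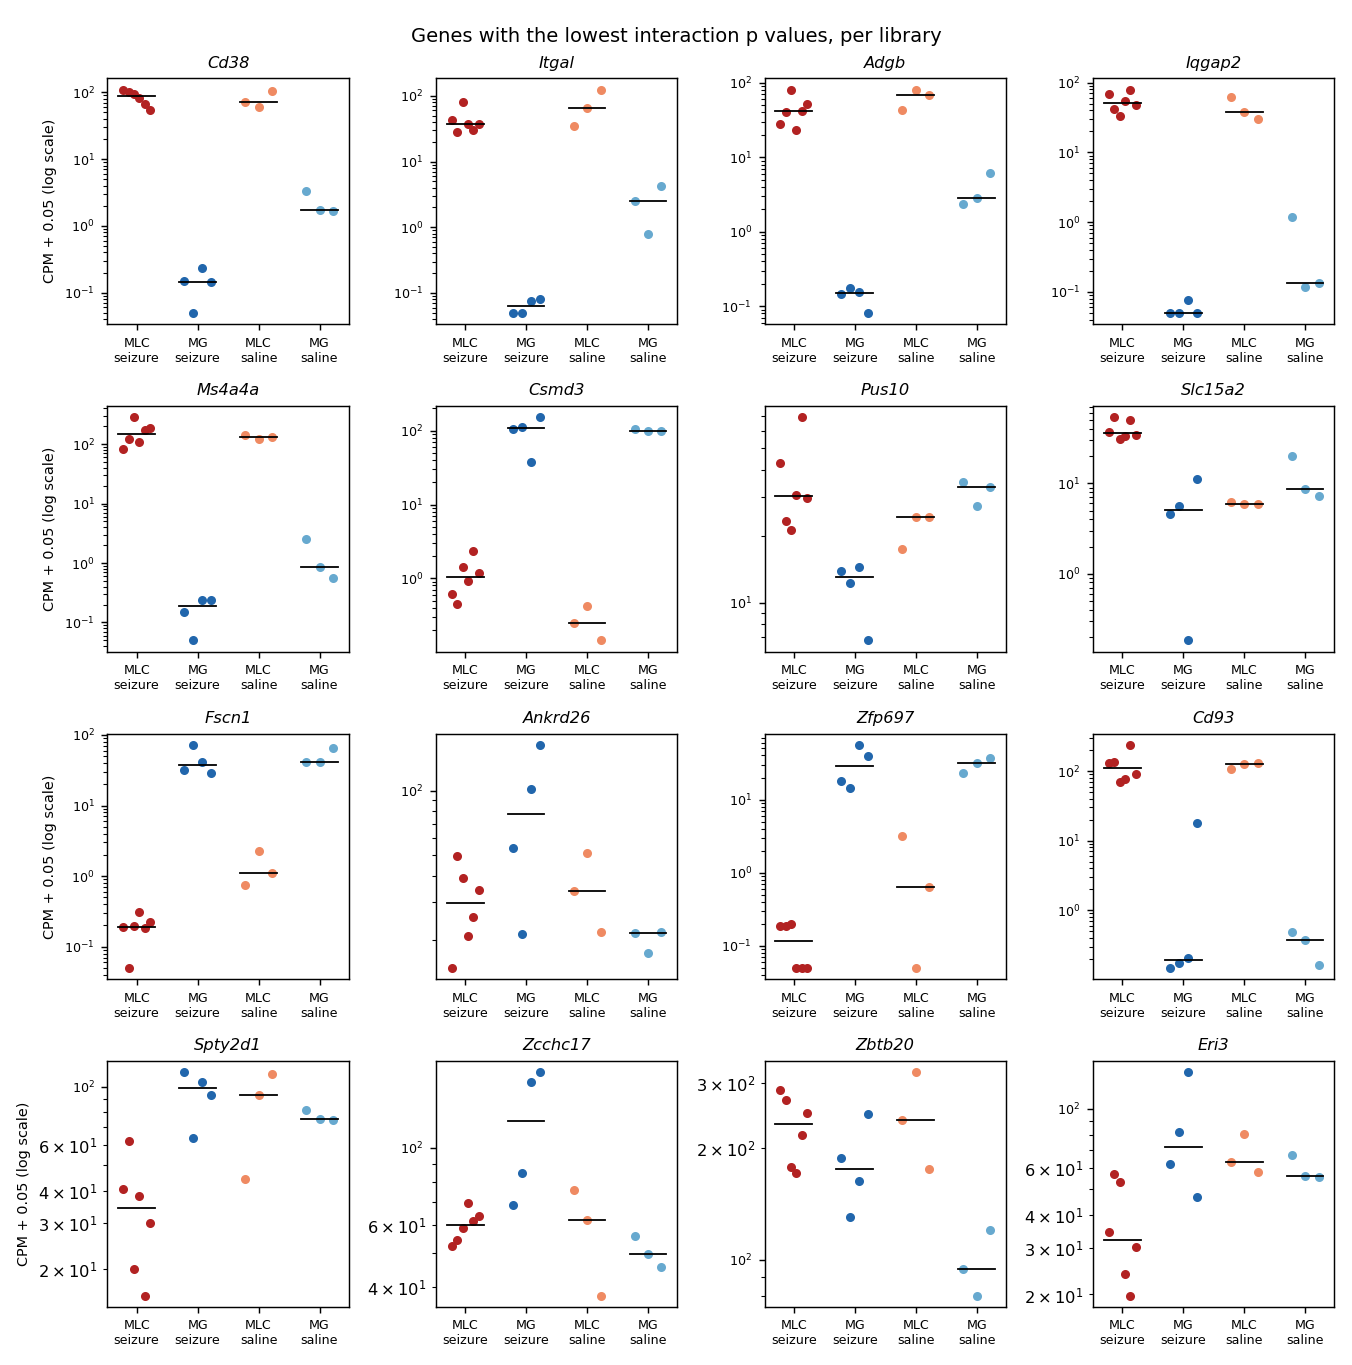
CPM plus 0.05 on a log axis in each library, with a line at the group median, for the 8 genes of positive and the 8 of negative interaction with the lowest p values and an average log2 CPM of 4 or more; groups run from MLC seizure and MG seizure to MLC saline and MG saline. In the panels of Cd38, Itgal, Adgb, Iqgap2 and Ms4a4a the MLC points of the treatments overlap and the MG seizure points lie at the bottom, and in that of Cd93 a single MG seizure library stands at 17.8 CPM.

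The 8 genes of negative interaction had adjusted p values of 0.89. Zfp697, a zinc finger protein, was like Fscn1 in being set by traces in MLC: 0 to 0.148 CPM in MLC seizure and 17.8, 14.5, 55.9 and 39.6 in MG seizure libraries, against 3.09, 0 and 0.584 in MLC saline and 22.7, 31.7 and 37.2 in MG saline libraries, an interaction of -4.05 (-7.10 to -0.99), which was -1.98 without MLC saline replicate 1. Cd93, a receptor of myeloid and endothelial cells, had 69.1 to 239 CPM (median 111) in MLC seizure and 0.0982, 0.125, 0.159 and 17.8 in MG seizure libraries, against 106, 127 and 133 in MLC saline and 0.443, 0.319 and 0.111 in MG saline libraries. Its interaction of -3.95 (-7.03 to -0.86) rests on MG seizure replicate 4 and was 1.10 without that library. The rest were expressed in both kinds of cells. Zbtb20, a transcriptional repressor, had 171 to 286 CPM (median 233) in MLC seizure and 188, 130, 163 and 248 in MG seizure libraries, against 238, 319 and 176 in MLC saline and 94.2, 79.97 and 120 in MG saline libraries. The kinds of cells overlapped after seizure and not after saline, and the interaction was -0.99 (-1.82 to -0.16). Zcchc17, a nucleolar protein, had 52.1 to 69.6 CPM (median 60.2) in MLC seizure and 68.5, 84.7, 154 and 164 in MG seizure libraries, against 75.8, 61.9 and 37.7 in MLC saline and 55.9, 49.6 and 45.5 in MG saline libraries, an interaction of -1.19 (-2.15 to -0.22); MG seizure replicates 3 and 4, of low complexity, were highest. Ankrd26, an ankyrin-repeat protein, was also highest in those replicates, with 14.7 to 49.4 CPM (median 29.9) in MLC seizure and 53.7, 21.2, 101 and 164 in MG seizure libraries, against 33.7, 50.9 and 21.7 in MLC saline and 21.6, 17.4 and 21.8 in MG saline libraries. Its interaction was -2.28 (-3.81 to -0.75). Spty2d1, a histone chaperone, and Eri3, an exonuclease, had -1.55 (-2.78 to -0.31) and -1.35 (-2.48 to -0.22).

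Of the pathway lists, that of MHC class II presentation had the lowest median interaction, -1.19; among the lists of markers for other cells, that of red cells and choroid plexus had -1.32. Class II molecules display peptides from engulfed proteins to helper T cells. Their alpha and beta chains, the invariant chain Cd74 and the peptide-loading factor H2-DM are switched on together by Ciita. Ciita binds factors at shared promoter elements, among them the Y box, a CCAAT element. H2-DO is a further molecule of class II presentation. Promoters of H2-Aa, the class II alpha chain, H2-Eb1, a beta chain, and H2-Oa, a chain of H2-DO, are shown because, of the list members with a promoter in the table, these 3 hold the Y-box letters searched for; the capitals mark those letters, CTGATTGG, sought on both strands. The sequences are from RefSeq in build GRCm38.p6, 5′ to 3′ on the gene's strand.
H2-Aa, chr17:34287805-34287954, minus strand: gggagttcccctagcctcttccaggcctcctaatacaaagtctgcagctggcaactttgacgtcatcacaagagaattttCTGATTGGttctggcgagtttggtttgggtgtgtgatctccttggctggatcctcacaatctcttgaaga
H2-Eb1, chr17:34305725-34305874, plus strand: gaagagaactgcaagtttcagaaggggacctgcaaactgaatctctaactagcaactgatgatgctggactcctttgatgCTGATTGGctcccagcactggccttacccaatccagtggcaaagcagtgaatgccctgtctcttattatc
H2-Oa, chr17:34092253-34092402, plus strand: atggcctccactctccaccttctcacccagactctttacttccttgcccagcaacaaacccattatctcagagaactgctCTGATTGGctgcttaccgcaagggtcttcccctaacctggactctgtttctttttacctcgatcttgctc
The element begins 51 bases before the start of the gene in H2-Aa, 62 in H2-Eb1 and 46 in H2-Oa. It was found in 3 of the 9 list members with a promoter in the table and in 1346 of all 32851 promoters of 300 bases (4.1%). A match describes the sequence and shows no binding.

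Of the 13 class II genes, 12 had a negative interaction and 0 passed, with none at an unadjusted p under 0.05, beside 5.49% of all genes. That share depends on level and was 1.14% over all genes at an average log2 CPM of 4 to 6 and 0.348% at 8 and over. The median of the class II genes was -1.19, beside -0.06 over all genes tested. Over the other fits it lay between -1.49, without the 11b libraries, and -0.09, in limma-voom with quality weights. It was -0.32 without MLC saline replicate 2, -0.34 without the 3 low-complexity libraries and -0.5 without MG seizure replicate 3. Cd74 had 10911 to 57187 CPM (median 34336) in MLC seizure libraries and 4550, 184, 9773 and 255 in MG seizure libraries. It had 35718, 85970 and 12867 CPM in MLC saline libraries and 1713, 1462 and 548 in MG saline libraries. MG seizure replicates 1 and 3 lay above all MG saline libraries and replicates 2 and 4 below them. The ratio of MLC to MG was 8.93 after seizure and 36.1 after saline, an interaction of -2.02 (-4.47 to 0.43; edgeR adjusted p = 1.0). H2-Ab1, a class II beta chain, followed the same libraries, with 1747 to 25485 CPM (median 11628) in MLC seizure and 1202, 57.6, 2676 and 64.6 in MG seizure libraries, against 14027, 29714 and 4253 in MLC saline and 300.1, 318 and 219 in MG saline libraries. Its interaction was -2.19 (-4.75 to 0.38; edgeR adjusted p = 0.98). H2-Eb1 had 459 to 4499 CPM (median 1866) in MLC seizure and 185, 4.49, 533 and 28.3 in MG seizure libraries, against 2182, 7725 and 1281 in MLC saline and 68.2, 95.3 and 33.3 in MG saline libraries, an interaction of -2.38 (-5.18 to 0.43). H2-Aa had 1130 to 6782 CPM (median 3274) in MLC seizure and 348, 3.24, 736 and 5.02 in MG seizure libraries, against 3418, 10336 and 1859 in MLC saline and 105, 132 and 41.2 in MG saline libraries, an interaction of -2.16 (-5.18 to 0.87). MLC seizure replicate 5 was the lowest of its group in each of these 4 genes, and MLC saline replicate 2 the highest of its own. The order of the MG seizure libraries was also the same in all 4, replicate 3 above 1 and both far above 4 and 2. In the library names, MG seizure replicates 1 and 3 carry the codes 1-F1 and 2-F2, and replicates 2 and 4 the codes 1-M1 and 2-M2. The higher and the lower pair thus differ in the letter F or M. Names of saline libraries hold neither letter, and the part of this in the interaction was not tested.

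Ciita was low in MG and had the same 2 MG seizure libraries on top: 1.62 to 104 CPM (median 44.4) in MLC seizure and 1.57, 0.249, 8.52 and 0.0953 in MG seizure libraries, against 44.7, 407 and 25.2 in MLC saline and 2.14, 2.05 and 1.19 in MG saline libraries. Its interaction was -2.17 (-5.30 to 0.95). H2-Oa was the member that MG held more of, with 0.541 to 40.4 CPM (median 11.7) in MLC seizure and 61.8, 41.1, 109 and 65.0 in MG seizure libraries, against 17.5, 101 and 14.1 in MLC saline and 53.5, 72.5 and 53.4 in MG saline libraries. MLC and MG did not overlap after seizure and overlapped after saline, and the interaction was -1.82 (-4.06 to 0.42); an antisense gene covers 22.8% of its exon bases. The loading factors H2-DMa and H2-DMb1 had -0.49 and -0.77, and H2-DMb2 -1.19. Ctss, the protease that trims the invariant chain, had -0.36 (-1.14 to 0.42). Ifi30, a thiol reductase, had -0.06, and Cd86, a costimulatory ligand, 0.03 (-0.83 to 0.89). The 21 class I genes had a median of -0.33, with 0 passing and 0 at an unadjusted p under 0.05.

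**Figure D4:**
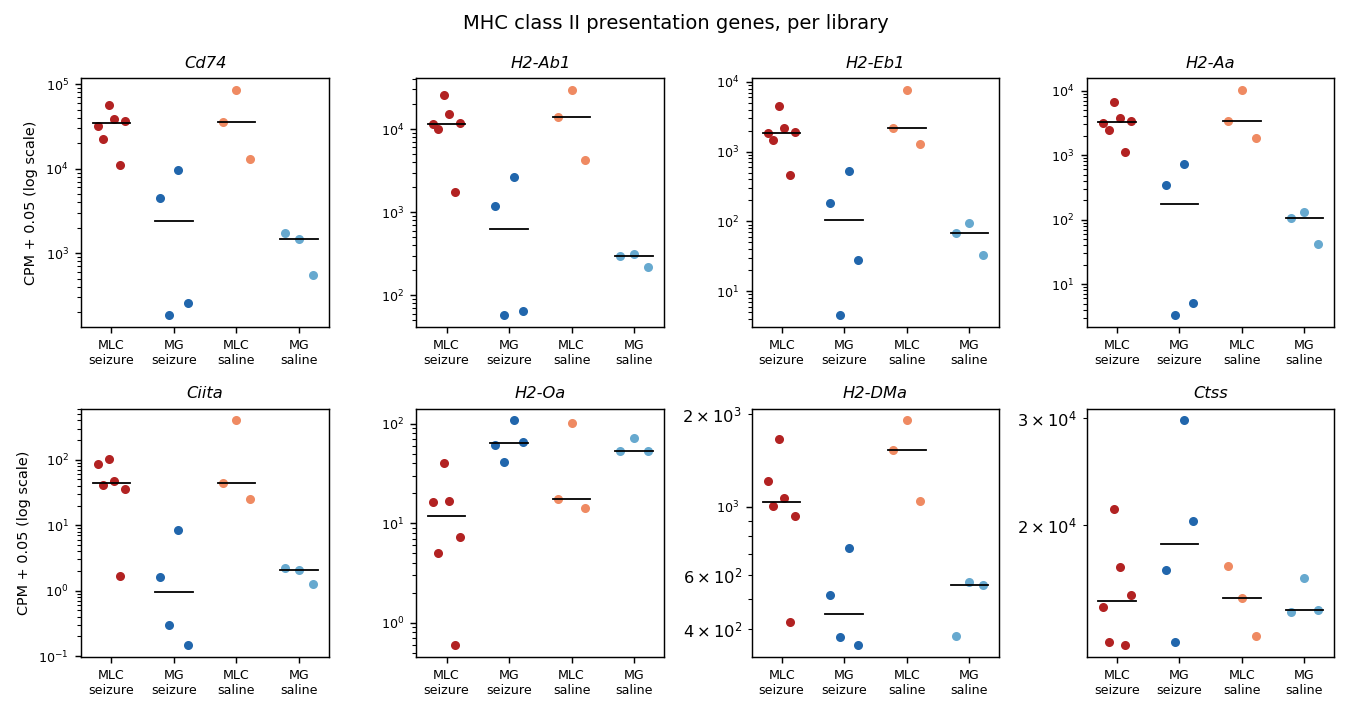
CPM plus 0.05 on a log axis in each library, with a line at the group median, for 8 genes of MHC class II presentation; groups run from MLC seizure and MG seizure to MLC saline and MG saline. For Cd74, H2-Ab1, H2-Eb1 and H2-Aa the 4 MG seizure points fall into a higher and a lower pair on either side of the MG saline points, while the points of all groups overlap in Ctss.

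Other immune lists lay near the median of all genes. Of 41 genes of the type I interferon response, 0 passed in edgeR, and the median was 0.01. At an unadjusted p under 0.05, 3 had a positive interaction, beside 3.94% of all genes, and 0 a negative one. These 3 were Oasl1 and Oas2, which belong to the oligoadenylate synthase family, and Ifi44. In DESeq2, Oasl1 (adjusted p = 0.019) and Ifi44 (adjusted p = 0.048) passed. Oasl1 had 0.345 to 20.6 CPM (median 3.89) in MLC seizure libraries, 0 in all 4 MG seizure libraries, 0.760, 28.9 and 14.3 in MLC saline libraries and 4.33, 3.51 and 2.53 in MG saline libraries. Ifi44 had 8.34 to 32.1 CPM (median 23.1) in MLC seizure and 0, 0, 0.159 and 0.159 in MG seizure libraries, against 10.2, 54.7 and 9.27 in MLC saline and 1.63, 1.41 and 1.67 in MG saline libraries, an interaction of 3.78 (1.07 to 6.49; edgeR adjusted p = 0.89). Both thus fell in the class of low traces in MG saline libraries given above. The abundant member Bst2, which tethers budding virus, had -0.73 (-1.55 to 0.10). Among 35 genes of inflammatory cytokines and NF-kB, 0 passed and 1 had an unadjusted p under 0.05 (median -0.07). That was Il6, which MG held more of: 0 to 3.24 CPM (median 0.114) in MLC seizure and 8.15, 4.98, 6.37 and 7.37 in MG seizure libraries, against 0, 0 and 0.0942 in MLC saline and 9.92, 6.75 and 8.44 in MG saline libraries. Its interaction of 4.69 (0.66 to 8.73; edgeR adjusted p = 0.89) rests on MLC seizure replicates 4 and 6. The chemokines Ccl12 and Ccl7, attractants of monocytes, were higher in MLC in both treatments and had -0.59 (-2.04 to 0.85) and -1.23 (-3.24 to 0.78). Of 27 genes of disease-associated microglia 0 passed and 0 had an unadjusted p under 0.05 (median -0.29); Trem2, a lipid receptor that these cells require, had -0.33 (-1.10 to 0.44). Of 19 genes of complement and Fc receptors and 37 of lysosome and phagocytosis, 0 passed and 0 had an unadjusted p under 0.05 (medians -0.27 and -0.29). C3ar1, the receptor of complement C3a, had -0.27 (-0.96 to 0.43) and Cd9, a tetraspanin, -0.09 (-0.91 to 0.72). Of 33 genes of lipid and cholesterol handling 0 passed (median 0.18), and 2 had a positive interaction at an unadjusted p under 0.05, beside 3.94% of all genes. Msr1, a scavenger receptor, had 1.49 (-0.59 to 3.57).

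Of the bone-marrow macrophage genes, 6 had a positive and 1 a negative interaction at an unadjusted p under 0.05, as given above. Positive ones beyond Cd38 and Itgal are given here, and in each of them all MG seizure libraries lay below all MG saline libraries. In Pla2g7, Iqgap1 and Nlrc4, MLC seizure replicate 5, of low complexity, was also the highest of its group. Pla2g7, an enzyme that breaks down platelet-activating factor, had 616 to 1946 CPM (median 862) in MLC seizure and 4.71, 1.25, 1.35 and 3.34 in MG seizure libraries, against 825, 567 and 503 in MLC saline and 13.5, 6.34 and 7.80 in MG saline libraries, an interaction of 2.48 (0.83 to 4.14; edgeR adjusted p = 0.89). Iqgap1, the relative of Iqgap2, was expressed in both kinds of cells, at 85.3 to 303 CPM (median 103) in MLC seizure and 5.21, 12.8, 3.79 and 6.13 in MG seizure libraries, against 96.1, 104 and 151 in MLC saline and 18.5, 19.9 and 36.0 in MG saline libraries. MG libraries of the 2 treatments did not overlap, and the interaction was 2.06 (0.59 to 3.52; edgeR adjusted p = 0.89). Nlrc4, an inflammasome receptor, had 20.3 to 322 CPM in MLC seizure and 0.0318 to 0.125 in MG seizure libraries, against 42.0 to 61.1 in MLC saline and 0.139 to 0.396 in MG saline libraries. Cd163, a haemoglobin scavenger receptor, was at 0 in all 4 MG seizure libraries and at 0.0912 to 0.303 CPM in MG saline libraries.

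Lists tied to neuronal activity showed no interaction that passed. Of 25 immediate early genes 0 passed (median -0.44) and 2 had an unadjusted p under 0.05, beside 5.49% of all genes. Both had at most 30 counts in any group. Fos had 27.3 to 124 CPM (median 77.9) in MLC seizure and 73.1, 48.0, 28.7 and 109 in MG seizure libraries, against 14.9, 73.4 and 27.4 in MLC saline and 29.3, 23.7 and 24.5 in MG saline libraries. Groups overlapped, and the interaction was -0.28 (-1.85 to 1.29). Jun, its partner in AP-1, had -0.38 (-1.97 to 1.21). Of 27 purinergic and neuron-sensing receptors 0 passed (median 0.03), and 2 had a positive interaction at an unadjusted p under 0.05, beside 3.94% of all genes. Adora3, the adenosine receptor A3, stood at 0.413 to 19.1 CPM (median 5.80) in MLC seizure and 365, 280, 540 and 374 in MG seizure libraries, against 6.06, 18.3 and 14.6 in MLC saline and 334, 447 and 430 in MG saline libraries. MLC and MG were far apart in both treatments, and its interaction was -0.54 (-2.47 to 1.38); Tmigd3, on the same strand, covers 20.9% of its exon bases. Of the 16 genes of glutamate and GABA handling, 15 had a positive interaction and 0 passed. Their median of 2.12 comes from scarce genes, and over the 10 members with more than 3 counts in each group it was 0.51. Markers of neurons and of astrocytes had medians of the same sign, 1.79 with 9 of 12 positive and 1.44 with 10 of 12 positive. Without the 11b libraries these 2 medians were -0.67 and -0.6, and that of glutamate and GABA handling was 0.86. The part of neurons and astrocytes in the latter was not tested. Slc1a3, the glutamate transporter that microglia also hold, averaged 11.2 CPM in MLC seizure, 437 in MG seizure, 8.73 in MLC saline and 469 in MG saline libraries, an interaction of 0.47. Glul, glutamine synthetase, averaged 498 CPM in MLC seizure, 1225 in MG seizure, 293 in MLC saline and 655 in MG saline libraries, an interaction of -0.14.

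Among metabolic lists, the 15 mitochondrially encoded transcripts all had a positive interaction (median 0.44), with 0 passing and 0 at an unadjusted p under 0.05; the lowest p was 0.13. Their summed level was 5900 to 27200 CPM (median 13100) in MLC seizure, 4580 to 11200 (7020) in MG seizure, 5800 to 8830 (6930) in MLC saline and 4430 to 5810 (5530) in MG saline libraries. MLC seizure replicate 5, one of the 3 libraries with few genes, had the highest share of mitochondrial counts, 2.51%. The median was 0.28 without that library, 0.24 without MG seizure replicate 2, 0.72 without MG seizure replicate 4 and 0.06 with the replicate block. The nuclear genes of oxidative phosphorylation, 32 in number, had a median of -0.28, with 23 negative, and 37 cytosolic ribosomal proteins had -0.06; 0 passed in either. In 24 genes of glycolysis and hypoxia 0 passed (median -0.30). At an unadjusted p under 0.05, 2 had a positive and 1 a negative interaction, beside 3.94% and 1.55% of all genes. Pdk1, a kinase that restrains pyruvate dehydrogenase, had 6.33 to 25.8 CPM (median 10.1) in MLC seizure and 59.0, 53.8, 75.4 and 120 in MG seizure libraries, against 28.4, 17.1 and 11.96 in MLC saline and 59.4, 39.0 and 35.3 in MG saline libraries, an interaction of -1.45 (-2.77 to -0.13; edgeR adjusted p = 0.89). Tfrc, the transferrin receptor, had 0.0863 to 2.00 CPM (median 0.135) in MLC seizure and 0, 25.04, 88.2 and 15.7 in MG seizure libraries, against 12.1, 10.01 and 6.27 in MLC saline and 13.6, 22.8 and 8.88 in MG saline libraries. MLC libraries of the 2 treatments did not overlap, and the interaction was -5.38 (-10.06 to -0.70; edgeR adjusted p = 0.89). On the list of iron handling and antioxidant defence, with 25 genes, 2 had a positive and 1 a negative interaction at an unadjusted p under 0.05. The shares over all genes were 3.94% and 1.55%. Of 34 cell cycle genes 0 passed and 4 had a positive interaction at an unadjusted p under 0.05, beside 3.94% of all genes. One was Top2a, a topoisomerase of dividing cells, with 1.18 to 44.7 CPM (median 7.44) in MLC seizure and 0.393, 0.872, 0.106 and 0.0318 in MG seizure libraries, against 0.0869, 2.00 and 6.54 in MLC saline and 0.722, 11.1 and 2.30 in MG saline libraries. Libraries of each group were far apart. The median interaction of the 34 cell cycle genes was 0.56, and 0.24 over the 29 with more than 3 counts in each group. Over the other fits it lay between 0.1, without MG saline replicate 2, and 1.76, without MLC saline replicate 3.

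**Figure D5:**
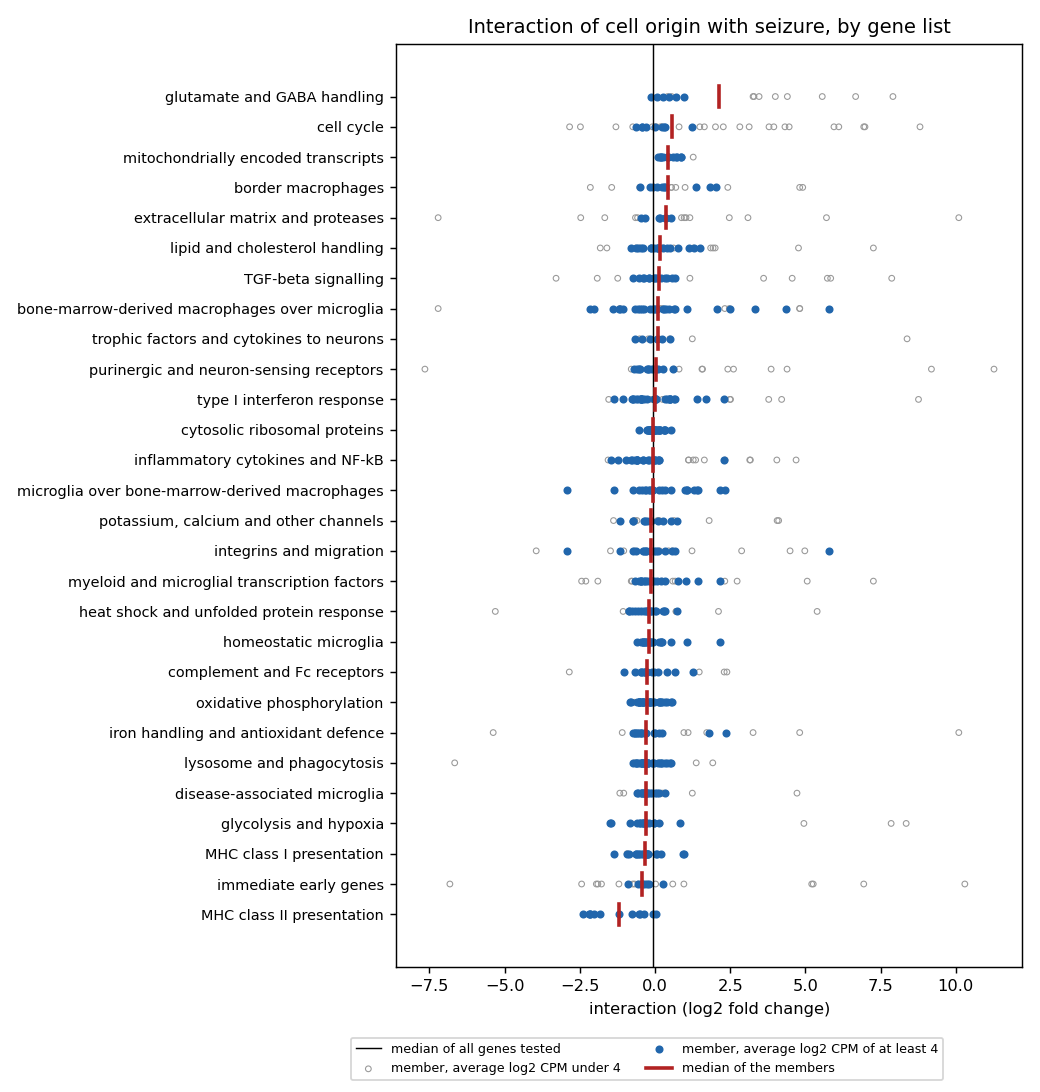
Each point is the interaction of a list member on the log2 scale, filled where the average log2 CPM is at least 4 and open where it is lower; red bars give the median of the members, the vertical line that of all genes tested (-0.06), and lists run from the highest median at the top to the lowest at the bottom. Filled points lie near the line for most lists, open points scatter widely, and of the pathway lists drawn, that of class II lies lowest at -1.19; marker lists of other cells are not drawn.

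The parts of the interaction were also tested singly. Seizure against saline called 0 genes in MLC (0%) and 7 in MG (0.0371%) in edgeR, with 2236 genes (11.9%) and 2226 genes (11.8%) at an unadjusted p under 0.05; all 7 were lower after seizure. DESeq2 called 130 in MLC and 274 in MG, limma-voom 96 and 253, and limma on log2(CPM + 1) 51 and 35. The 7 were Cd38, Itgal, Saa3, Adam33, Rftn1, Gpr18 and a gene without a name; Saa3, Adam33, Rftn1 and Gpr18 are named here after their values were seen. Adam33, a membrane protease, had 12.3 to 22.6 CPM (median 16.6) in MLC seizure libraries, 0 in all 4 MG seizure libraries, 22.9, 25.2 and 20.5 in MLC saline libraries and 0.280, 0.844 and 0.694 in MG saline libraries. Rftn1, a raft protein of leukocytes, had 0.196, 0, 0.0531 and 0.0318 CPM in MG seizure and 3.89, 1.69 and 1.44 in MG saline libraries, and Gpr18, a lipid receptor, 0.0982, 0, 0.0531 and 0.0318 in MG seizure and 2.75, 2.42 and 1.31 in MG saline libraries. Each of these 3 was higher in MLC than in MG in all libraries. Saa3, an acute-phase serum amyloid, fell outside that pattern. It had 0 to 2.72 CPM (median 0.135) in MLC seizure and 0, 0.125, 0.0796 and 0.0953 in MG seizure libraries, against 18.6, 17.3 and 21.04 in MLC saline and 49.4, 20 and 19.0 in MG saline libraries. NoTx libraries averaged 0.0539 CPM after seizure and 16.8 after saline. Every saline library was thus above every seizure library in all 3 kinds of cells, a difference that follows batch as well as treatment, and the interaction, 3.55 (0.11 to 6.98; edgeR adjusted p = 0.89), did not pass.

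Markers of other cells gave these values. The 12 markers of T and NK cells summed to 0.541 to 7.18 CPM in MLC seizure, 0 to 14.3 in MG seizure, 9.73 to 12.3 in MLC saline and 0.536 to 1.64 in MG saline libraries. Markers of neurons reached 156 CPM in MLC seizure, 16.7 in MG seizure, 21.3 in MLC saline and 14.5 in MG saline libraries. Markers of blood monocytes and dendritic cells summed to at most 19.7 CPM in MLC seizure, 60.2 in MG seizure, 12.8 in MLC saline and 31.2 in MG saline libraries. The neutrophil list had most of its level from Csf3r, a cytokine receptor that microglia express too, at 51.3, 252, 285 and 645 CPM on average in MLC seizure, MG seizure, MLC saline and MG saline libraries. Markers of astrocytes, Slc1a3 among them, summed to 7 to 161 CPM in MLC seizure, 337 to 569 in MG seizure, 38.7 to 55.0 in MLC saline and 442 to 518 in MG saline libraries. Markers of red cells and choroid plexus summed to 45.2 to 994 CPM in MLC seizure, 128 to 227 in MG seizure, 64.0 to 598 in MLC saline and 56.2 to 118 in MG saline libraries, and markers of oligodendrocytes to at most 205 CPM in any library. Markers of B cells summed to 232 to 655 CPM in MLC seizure, 633 to 1630 in MG seizure, 618 to 904 in MLC saline and 971 to 1260 in MG saline libraries. Of the members tested on these lists, 0 passed the interaction. An unadjusted p under 0.05 was found for 2 of 12 tested markers of astrocytes, 2 of 7 of B cells and 1 of 9 of oligodendrocytes. All had a positive interaction, beside 3.94% of all genes with a positive one at that limit. The median interaction was 1.08 for markers of blood monocytes and dendritic cells, 0.60 for neutrophils, 0.14 for endothelium and mural cells, -0.21 for B cells, -0.58 for T and NK cells, -0.78 for oligodendrocytes and -1.32 for red cells and choroid plexus, which was 0.66 without MLC saline replicate 1. The part of such cells in the results above was not tested.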

How the data were processed

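Libraries were prepared by a PCR-based kit for little RNA from cells that had been sorted, per the labels' protocols. The tools were Trim Galore 0.6.7 for trimming, STAR 2.7.10a for alignment to GRCm39 and featureCounts for counting, per the submitters' processing notes. The values are estimated counts per gene as the authors deposited them; 28.2% to 45.4% of values above 0 in a library were not whole, and which step made them so is not given in the sources used. They were rounded to whole counts here. No molecular identifiers are named, so counts of PCR reads are not counts of molecules. P-values measure the spread between these samples, which the labels call biological replicates without naming the mice.

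All 21 libraries entered 1 quasi-likelihood fit of 6 group means in edgeR 4.0.16 (R 4.3.3; TMM, filterByExpr by group, robust), with Benjamini-Hochberg adjustment over 18867 genes with a limit of 0.05. The SE is the absolute log2 fold change over the square root of F; intervals are 95% and use the t quantile at the degrees of freedom of the fit. All p-values are two-sided. No fold is given where a group had 1 to 3 counts or 0. Fits with DESeq2 1.42.0 and limma 3.58.1, other filters, scalings and sets of libraries were run as alternatives. The code was tested on simulated data.

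The members and the gene lists were chosen with earlier results of these data known, and the lists come from general knowledge. Genes named by rule were the 8 per direction with the lowest interaction p and an average log2 CPM of at least 4, the 8 with the narrowest interval among genes with a log2 fold change beyond 2 in both MLC against MG comparisons, list members, Csf1r and Cx3cr1. Predicted genes were counted and not named. Exon overlaps come from the GENCODE annotation of GRCm38 and promoters from RefSeq in GRCm38.p6; no coordinates were carried between builds. Some list members are not reported here.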

Additional observations from a re-analysis of the deposited data

Results flagged for a closer look

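For 84 genes, most of them described above, the CPM of the 6 MLC seizure libraries and of the 4 MG seizure libraries were searched for a single library farther from the others of its group than Dixon's 95% limit allows. Of 168 sets of values, 23 had one. The limit gives about 1 in 20 by chance only for normally distributed values. CPM are skewed, and a set with 1 library above 0 and the others at 0 is always flagged. The 23 are therefore no measure of an excess over chance. MLC seizure replicate 5 was the one in Trem2 (593 CPM, others at least 1191), Iqgap1 (303, others at most 134), Pla2g7 (1946, at most 1028), Nlrc4 (322, at most 119) and Top2a (44.7, at most 11.99). MLC seizure replicate 3 was the one in Itgal (79.6, others at most 42.5), C3ar1 (2139, at most 1580), Saa3 (2.72, at most 0.278) and Glul (780, at most 478). MLC seizure replicate 6 was the one in Il6 (3.24, others at most 1.04), Pdk1 (25.8, at most 13.5), Tfrc (2.00, at most 0.278) and Xist (7.48, at most 2.64). MLC seizure replicate 2 was the one in Cx3cr1 (2968, others at most 1617) and Csf3r (138, at most 57.4). MG seizure replicate 4 was the one in Cd93 (17.8, others at most 0.159), Jun (93.6, at most 37.5), Nav3 (434, at most 244) and Siglec1, a sialic acid receptor (0.0318, a single count, others at 0). MG seizure replicate 3 was the one in Ms4a7 (15.3, others at most 3.02), Oas2 (0.345, others at 0), Cenpe, a kinesin of dividing cells (0.106, others at 0), and Iqgap2 (0.0265, a single count, others at 0). MLC seizure replicate 5 and MG seizure replicates 3 and 4 had the fewest genes once depths were made equal; the part of that in these values was not tested.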

How the results depend on the processing

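The interaction called 0 genes in the fit as reported, in each fit that left out 1 of the 16 libraries (0 to 0), and with RLE scaling, no low-count filter or a stricter one, only the 16 libraries, the replicate block, the library code block, the 11b libraries left out or summed, without 3 low-complexity libraries (MG seizure replicates 3 and 4 and MLC seizure replicate 5), thinning and GC correction. DESeq2 called 143 (118 higher, 25 lower), limma-voom 8 (6 and 2) and limma on log2(CPM + 1), added after seeing the data, 2 (0 and 2). MLC and MG of a treatment share replicate numbers and codes in the library names, which differ in order after seizure. Correlations of deviations were -0.077 to 0.444 by number and by code, not all above 0.1, so neither was taken as a pairing, and 3 of 7 numbered MLC libraries matched their own number best. Genes with an unadjusted p under 0.05 numbered 651 with the replicate block (lowest adjusted p 0.31) and 545 with the library code block (lowest adjusted p 1).

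MLC against MG after seizure called 1109 genes, 776 to 1117 with 1 library left out, 2447 in DESeq2 and 618 without the 3 low-complexity libraries. After saline it called 299, 181 to 354 with 1 left out, 660 in DESeq2, 1683 in limma-voom, 508 in limma on log2(CPM + 1) and 468 without those 3. Seizure against saline in MLC called 0, 0 to 1 with 1 left out, 130 in DESeq2, 96 in limma-voom, 51 in limma on log2(CPM + 1), 6 with no filter and 1 without the 11b libraries. In MG it called 7, 0 to 13 with 1 left out, 274 in DESeq2, 253 in limma-voom, 35 in limma on log2(CPM + 1), 16 with no filter, 11 with only the 16 libraries, 0 with the library code block, 3 without the 11b libraries, 3 with them summed, 0 without the 3 low-complexity libraries and 0 thinned. Intervals within -1 to 1 numbered 17 of 288, and 28 of 371 without those 3 libraries, a fit added later for this count.

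Among the 24 genes named by rule, Cd93 reversed, from -3.95 to 0.16 in limma-voom, 1.21 without the 3 low-complexity libraries and 1.10 without MG seizure replicate 4 (range -4.36 to 1.10 with 1 left out). The shift of each gene's interaction from the fit as reported had a median of 0.12 with RLE scaling and 0.13 in DESeq2. It was 0.16 with GC correction, 0.17 thinned, 0.16 without the 3 low-complexity libraries and 0.18 without MLC seizure replicate 5. The causes were not tested.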

Other observations

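Lists not described above had no member that passed the interaction in edgeR. Of 25 genes of TGF-beta signalling, 2 had an unadjusted p under 0.05, beside 5.49% of all genes. Both had traces in MG seizure libraries, and the median interaction of the list was 0.13. Of 21 channels (median -0.12), 1 had a positive and 1 a negative interaction at an unadjusted p under 0.05, beside 3.94% and 1.55% of all genes. The negative one was Lrrc8a, a subunit of the volume-regulated anion channel. It had 87.9 to 317 CPM (median 180) in MLC seizure and 264, 372, 236 and 273 in MG seizure libraries, against 80.05, 161 and 61.2 in MLC saline and 68.0, 91.3 and 48.5 in MG saline libraries. Its interaction was -1.18 (95% interval -2.27 to -0.09; edgeR adjusted p = 0.89), and a predicted gene on the same strand covers 66.2% of its exon bases. MG seizure libraries lay above all MG saline libraries.

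The medians of other lists were 0.44 for 20 genes of border macrophages, 0.10 for 12 trophic factors, -0.19 for 24 heat shock and unfolded protein genes, -0.13 for 29 integrins and migration genes, 0.36 for 20 genes of matrix and proteases, -0.29 for 25 of iron handling and antioxidant defence and -0.15 for 33 transcription factors, beside -0.06 for all genes tested.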
